A study of Mus musculus with 16 samples.

Results

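The genes of respiratory complexes II to V were examined in ventricular cardiomyocytes of mice lacking the G protein-coupled estrogen receptor (GPER) and of intact mice. They were taken by name: Sdha to Sdhd, symbols that start with Uqc or Atp5, symbols in which Cox is followed by a digit, and Cyc1, Cycs and Atpif1. This gave 58 of the 17097 genes named on the array. Complex II had 4 genes, complex III 10, complex IV 25 and complex V 18, and cytochrome c (Cycs) was counted alone. By role, 45 were structural subunits, 10 were assembly factors, and Cycs, Cox7a2l and Atpif1 made up the rest.

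RNA from 16 mice was hybridised to Affymetrix MG-430 PM strips, each mouse on its own array. There were 4 mice of each sex and genotype, GPER KO or intact. Intact stands for wild-type, and all animals received heparin and an anaesthetic before the heart was removed. All mice were 15 weeks old in the sample labels, whereas the methods of the study give an older age range. The deletion is described as specific to cardiomyocytes, but the promoter that drives the recombinase is not given in the sources used here. Cells were obtained by collagenase perfusion, straining and slow spins without sorting, so that fewer cells of a type and less RNA per cell cannot be told apart.

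Oxidative phosphorylation is the main source of ATP in the beating heart. Complex II (succinate dehydrogenase) passes electrons from the citric acid cycle to ubiquinone, complex III passes them on to cytochrome c, and complex IV (cytochrome c oxidase) hands them to oxygen. Complex V, the ATP synthase, uses the proton gradient built by complexes I, III and IV. Several complex IV subunits exist as a form of striated muscle and a form found in most tissues. Transcripts made from mitochondrial DNA are not among these genes.

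All values are log2 values as deposited, and differences are GPER KO minus intact on the log2 scale unless stated. The 58 genes were bright: 46 had a mean over 9, and 39 lay among the top 1% of probe sets, where array medians were 3.47 to 3.51. The mean of 7 genes was below the brightest nonspecific control probe set (6.97), namely Cox7b2, Cox11, Cox6b2, Cox4i2, Cox18, Cox8c and Cox15, and small differences in these are hard to read. Cardiomyocyte markers were high in all groups: the mean of 11 of them was 12.29 to 12.38 on every array, with overlap between the genotypes in each sex. Of these, Mb, Myl2, Actc1, Atp2a2 and Myl3 had means of 12.88 to 12.98, close to the array maxima of 12.97 to 13.02, where the arrays can show little change, so these markers compare cardiomyocyte content poorly. The brightest of the 58 genes, Atp5g3, had a mean of 12.39. Gper1 itself was near the control level (mean 2.81) and did not separate the genotypes, with 2.74, 2.97, 2.79 and 2.66 in female GPER KO mice and 2.76, 3.11, 2.80 and 2.82 in intact females. In males it was 2.86, 2.82, 2.74 and 2.72 in GPER KO mice and 2.64, 2.77, 2.75 and 2.93 in intact mice. Whether its probes lie in the deleted part is not given, so this level does not check the labels.

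Among markers of other cell types, only macrophage markers were called between the genotypes within a sex, and only in males. The mean of 12 macrophage markers was 4.90 to 5.15 in female GPER KO mice against 4.55 to 4.80 in intact females, and 5.08 to 5.82 against 4.67 to 5.21 in males, where 5 of the 12 were called higher. All 10 endothelial markers had lower means with GPER KO in both sexes (medians -0.32 and -0.33, none called). The 9 fibroblast markers had medians of 0.20 in females and 0.19 in males, and the 5 smooth muscle and pericyte markers -0.05 and -0.02. The 4 erythroid markers had medians of -0.61 and -0.16. The part of these cells in the results that follow was not tested. RNA quality, read as the 3' minus 5' signal of beta-actin (0.51 to 0.96) and Gapdh (0.09 to 0.32), overlapped between the groups.

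Promoter sequences were at hand for 44 of the 58 genes, from the RefSeq table on GRCm38.p6, as windows of 250 bases before to 50 after the start. The nuclear respiratory factor motif (GCGCA and GCGC with any 1 base between them, searched on both strands like the other motifs) occurred in 12 of 44 (27.3%), against 8.39% of the 13514 measured genes with a window. The ETS motif bound by GABPA (CCGGAAG) occurred in 16 of 44 (36.4%) against 15.1%. The MEF2 motif (CTA and TAG with any 4 bases between them) occurred in 1 of 44 (2.27%) against 4.11%. No window held overlapping letters of the first and second of these motifs. The windows of 3 genes are shown, on the strand of the gene, with motif letters in capitals. Sdhc, which was called over both sexes, had no window in the table. Cox19 is shown as the gene with the largest rise, Atp5g2 as the gene called lower in intact males than in intact females, a call lost when any 1 of 6 of the 8 intact arrays was left out, and Cox7a1 as the muscle isoform that was lower on every GPER KO array than on any intact array of the same sex but passed no test. None of the 3 motifs was found in the windows of Cox19 and Cox7a1.
Cox19, minus strand, chr5:139345117-139345416: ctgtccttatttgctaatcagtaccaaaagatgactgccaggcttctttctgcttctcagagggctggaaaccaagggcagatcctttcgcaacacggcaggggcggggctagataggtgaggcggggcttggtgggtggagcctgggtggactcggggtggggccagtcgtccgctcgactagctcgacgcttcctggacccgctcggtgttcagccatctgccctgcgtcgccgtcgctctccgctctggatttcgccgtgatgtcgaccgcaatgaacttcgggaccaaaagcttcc
Atp5g2, minus strand, chr15:102670998-102671297: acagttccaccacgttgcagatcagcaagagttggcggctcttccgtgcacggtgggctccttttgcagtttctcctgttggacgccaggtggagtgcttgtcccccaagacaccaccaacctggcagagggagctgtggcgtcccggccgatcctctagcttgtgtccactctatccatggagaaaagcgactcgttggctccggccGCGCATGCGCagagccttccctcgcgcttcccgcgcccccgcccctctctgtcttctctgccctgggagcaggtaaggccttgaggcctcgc
Cox7a1, plus strand, chr7:30183921-30184220: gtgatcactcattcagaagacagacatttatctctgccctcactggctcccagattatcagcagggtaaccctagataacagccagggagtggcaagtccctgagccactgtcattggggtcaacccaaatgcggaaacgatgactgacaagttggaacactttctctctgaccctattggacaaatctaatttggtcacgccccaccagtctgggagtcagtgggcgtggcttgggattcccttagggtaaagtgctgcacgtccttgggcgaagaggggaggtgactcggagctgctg

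The first question was whether the complexes differed with GPER KO in females. Of the 58 genes, 49 had a lower mean in GPER KO mice (84.5%, against 58.8% of all genes). The median difference was -0.07 against -0.02 for all genes. None was called by limma at a Benjamini-Hochberg adjusted p of 0.05, while 0.281% of all genes were called in either direction. At an unadjusted p of 0.05, 11 were lower and 1 was higher (20.7%), where 12.6% of all genes passed. The GPER KO and intact arrays did not overlap for 11 genes, 10 of them lower, or 19% against 5.69% of all genes. Among the 664 genes with a mean over 9, 432 had a lower mean and the median was -0.04, beside -0.06 for the 46 genes of these complexes in that range. At an unadjusted p of 0.05, 20.3% of those 664 passed (86 lower and 49 higher) and 21.7% of the 46 (10 lower and 0 higher). Lower means were seen for 65.1% of the 664 and 84.8% of the 46.

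In males the median lay nearer 0. Lower means were seen for 36 of 58 genes (62.1%, against 43.5% of all genes). The median of the 58 was -0.02 against 0.01 for all genes. The median of the 58 was -0.006 without GPER KO male 444, -0.0064 without intact male 453, -0.0131 without GPER KO male 432 and -0.0152 without intact male 452. With every male array left out in turn it ran from -0.0305 to -0.006. Among genes with a mean over 9 the male median was 0.01 for all 664 and -0.03 for the 46 of these complexes. Cox19 alone was called, and it was higher, while 0.62% of all genes were called. At an unadjusted p of 0.05, 4 genes were lower and 4 higher (13.8%), against 10.1% of all genes. Of the genes with a mean over 9, 22.6% of all 664 (56 lower and 94 higher) and 15.2% of the 46 (4 lower and 3 higher) passed in males. Arrays did not overlap for 6 genes, 4 of them lower, or 10.3% against 6.21% of all genes. Over both sexes 47 of 58 genes had a lower mean (81%, against 50.9% of all genes). In this comparison Sdhc was called lower and Cox19 higher, and 1.36% of all genes were called. Among the bright genes the median over both sexes was -0.01 for all 664 and -0.05 for the 46. At an unadjusted p of 0.05, 12 were lower and 2 higher over both sexes (24.1%, against 11.7% of all genes). Of the bright genes, 25.5% of all 664 passed over both sexes (91 lower and 78 higher) and 21.7% of the 46 (9 lower and 1 higher). Lower means were seen for 55.1% of the 664 and 84.8% of the 46.

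**Figure D1:**
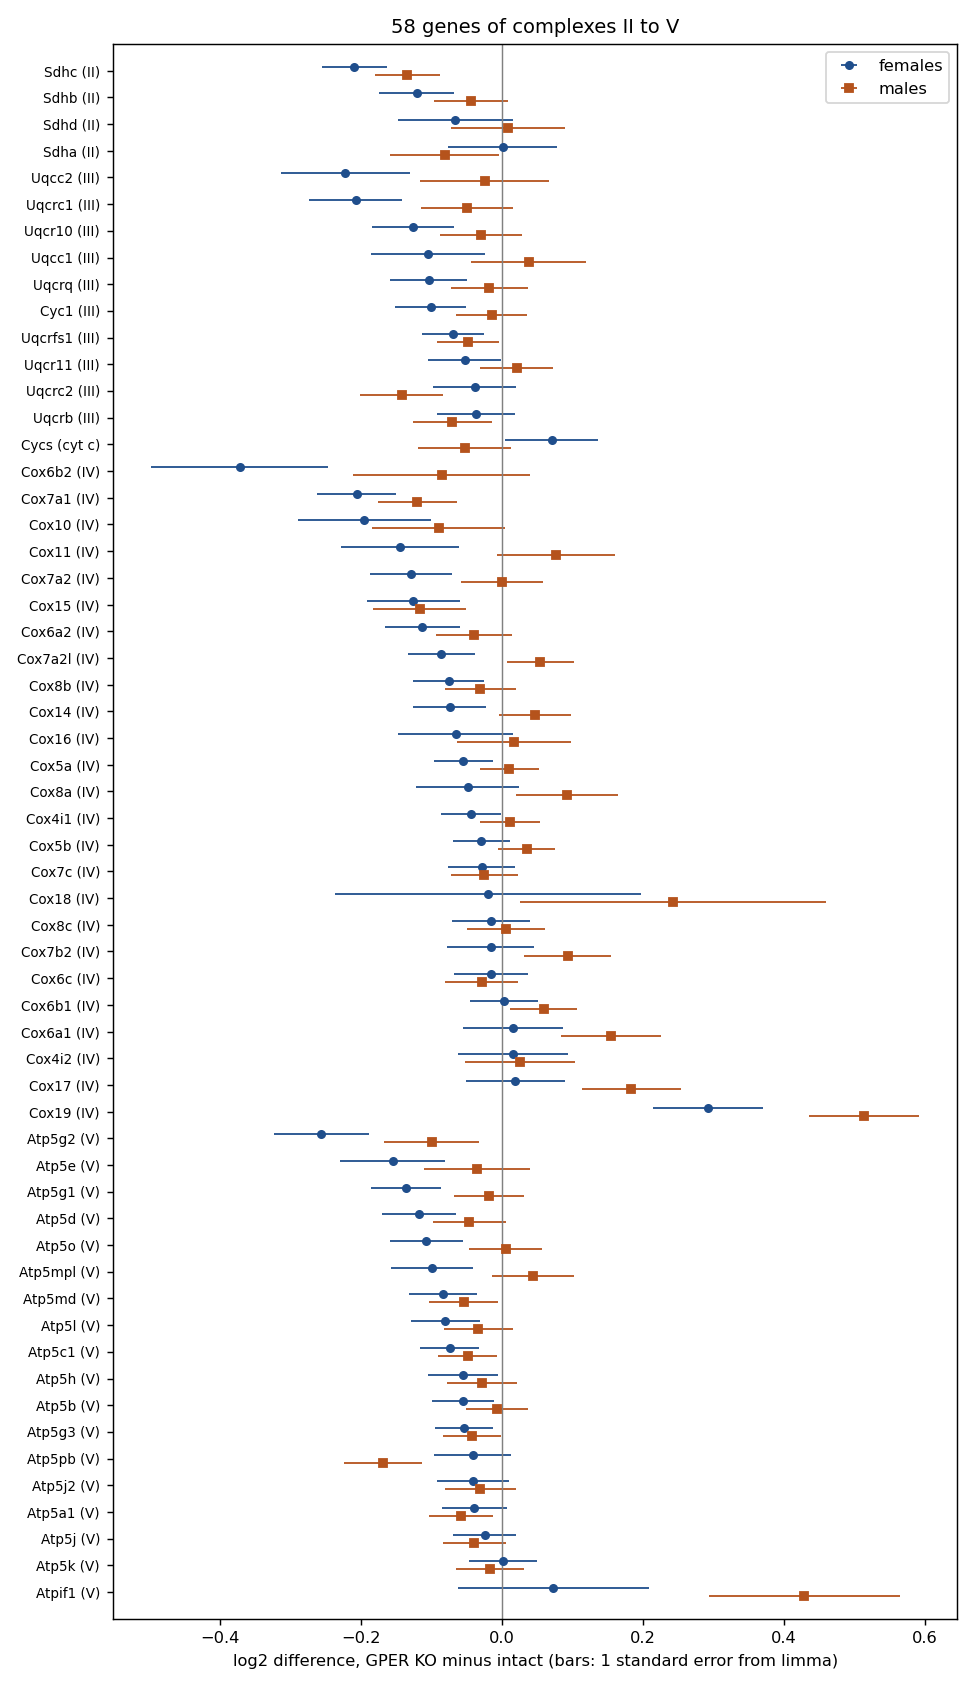
Log2 difference of GPER KO minus intact (x axis) for each of the 58 genes (y axis, complex in brackets), with circles for females, squares for males and bars of 1 standard error. In females 49 points lie below 0 and in males 36, and Cox19 lies farthest to the right in both.

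The sexes were then compared directly. The difference of the GPER KO effects, male minus female, was above 0 for 49 of 58 genes and for 10689 of all 17097. The median was 0.07 where all genes had 0.04. None of the 58 was called and none of all genes was called (0.0%), and no member passed an unadjusted p of 0.05, against 11.0% of all genes. A difference between the sexes in the effect of GPER KO was thus not shown for any single gene. The smallest p belonged to Cox7a2l (0.14 ± 0.07 standard error, limma adjusted p = 0.457), Cox19 (0.22 ± 0.11, adjusted p = 0.475) and Cox11 (0.22 ± 0.12, adjusted p = 0.501).

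The mean over all 58 genes was 10.16 ± 0.03 (SD, n = 4) in female GPER KO mice and 10.24 ± 0.03 in intact females, and the arrays did not overlap. In males it was 10.17 ± 0.02 in GPER KO and 10.17 ± 0.03 in intact mice. By complex, female arrays did not overlap for complex II (10.53 to 10.58 in GPER KO, 10.62 to 10.69 in intact mice) and complex III (10.74 to 10.80 and 10.82 to 10.91). They overlapped for complex IV (8.83 to 8.92 and 8.91 to 8.98) and complex V (11.42 to 11.49 and 11.45 to 11.55). In males the arrays overlapped for all 4 complexes. Single mice stood at the edge of their groups: intact female 425 was lowest of its group for 36 of 58 genes and GPER KO female 417 for 31, while GPER KO female 419 was highest for 29.

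**Figure D2:**
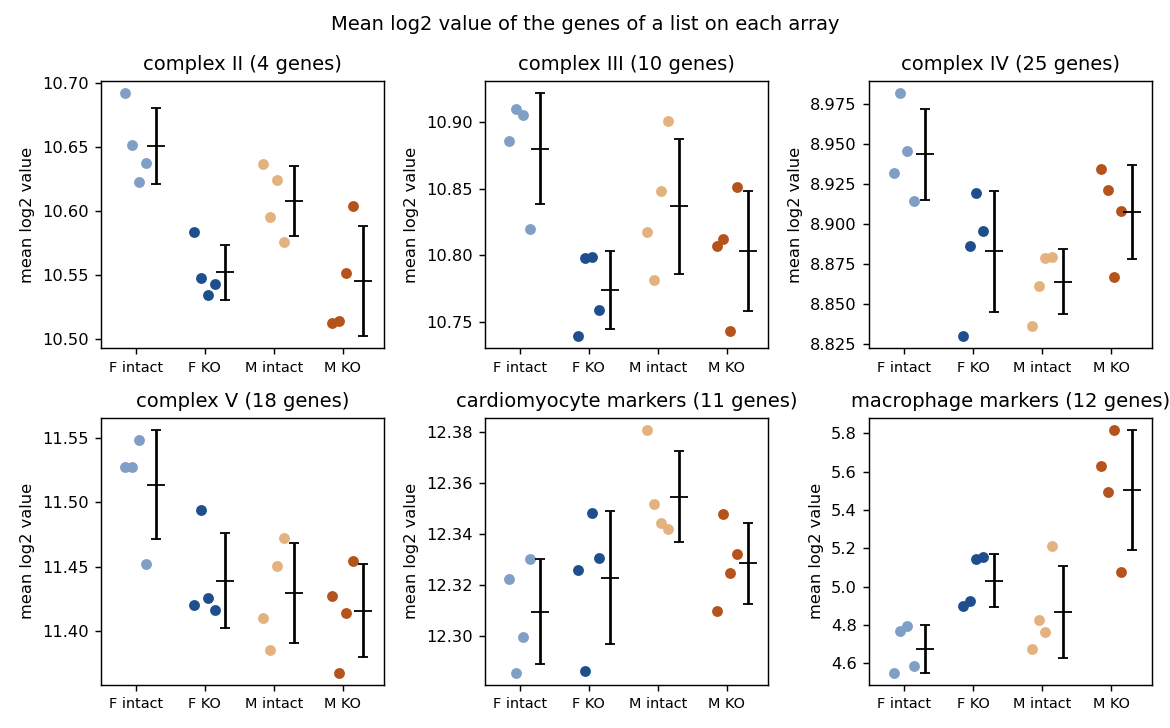
Mean log2 value (y axis) over the genes of each list on every array, by group (F female, M male), with points for mice and the bar for mean ± SD. The female GPER KO arrays lie below the intact female arrays for complexes II and III, and the macrophage marker mean is higher with GPER KO in both sexes.

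In complex II, Sdhc, which helps to anchor the enzyme in the inner membrane, stood out. Its values were 10.39, 10.38, 10.40 and 10.42 in female GPER KO mice and 10.64, 10.57, 10.65 and 10.57 in intact females. In males they were 10.42, 10.38, 10.40 and 10.49 with GPER KO and 10.48, 10.60, 10.59 and 10.55 in intact mice. The females did not overlap, and among males the highest GPER KO mouse reached the lowest intact mouse. Over both sexes Sdhc fell by 0.17 (standard error 0.03, limma adjusted p = 0.0118). The female difference was -0.21 (adjusted p = 0.0786) and the male difference -0.13 (adjusted p = 0.268). The iron-sulphur subunit gene Sdhb also did not overlap in females, and the difference of the flavoprotein gene Sdha was 0.00 in females and -0.08 in males. The 4 assembly factors of complex II had none called.

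In complex III all 10 genes had lower means with GPER KO in females (median -0.10) and 8 of 10 in males (median -0.03), none of them called. The lowest was Uqcc2, an assembly factor for cytochrome b, at -0.22 ± 0.09 in females (adjusted p = 0.337). Uqcrc1, a core subunit, was at -0.21 in females with no overlap (adjusted p = 0.220) and at -0.05 in males. The second core subunit, Uqcrc2, was at -0.04 in females and -0.14 in males (adjusted p = 0.397). The Rieske iron-sulphur protein gene Uqcrfs1 also did not overlap in females. Cyc1, the cytochrome c1 subunit, was at -0.10 and -0.01, and the mobile carrier gene Cycs at 0.07 and -0.05. Of the 3 other assembly factors, none was called between genotypes. Ttc19 among them was called higher in intact males than in intact females (0.36, adjusted p = 0.048).

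In complex IV, Cox19, an assembly factor of the intermembrane space with a part in copper supply to the enzyme, rose. Its values were 8.03, 8.07, 8.18 and 7.93 in female GPER KO mice and 7.60, 7.78, 7.86 and 7.80 in intact females. In males they were 8.32, 8.30, 8.10 and 8.43 with GPER KO and 7.72, 7.89, 7.72 and 7.76 in intact mice. Every GPER KO mouse of either sex lay above every intact mouse. The rise was 0.51 ± 0.08 in males (limma adjusted p = 0.0041) and 0.40 ± 0.06 over both sexes (adjusted p = 0.000981). In females the difference was 0.29 ± 0.08 and missed the threshold (adjusted p = 0.159). Intact males and females differed by 0.01. Cox19 rests on 1 probe set, as do Sdhc, Cox7a1, Atp5g2, Cox6a2, Atp5pb and Uqcrc1.

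Cox19 and Gper1 are neighbours. In the RefSeq gene order of GRCm38.p6, Cox19 lies on chromosome 5 with 5 genes between it and Gper1, of which 4 code for proteins and 3 were measured here. None of those 3 (3110082I17Rik, Gpr146 and C130050O18Rik) was called, and the measured genes on either side of this stretch, Get4, Sun1, Dnaaf5 and Prkar1b before it and Zfand2a, Uncx, Micall2 and Ints1 after it, were not called either. The largest male difference among them was that of Dnaaf5 at 0.23 (adjusted p = 0.457), and in females it was -0.16. In GPER KO males 5 macrophage markers were also called higher. Among these mice the mean of the 12 macrophage markers was highest in 444 (5.82), where Cox19 was lowest. It was lowest in 451 (5.08), where Cox19 was highest. In intact females the marker mean was lowest in 418 (4.55) and highest in 422 (4.80), and Cox19 likewise. The orders in female GPER KO mice and intact males followed neither pattern throughout. Whether closeness to the deleted gene or other cells had a part in the rise of Cox19 was not tested.

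**Figure D3:**
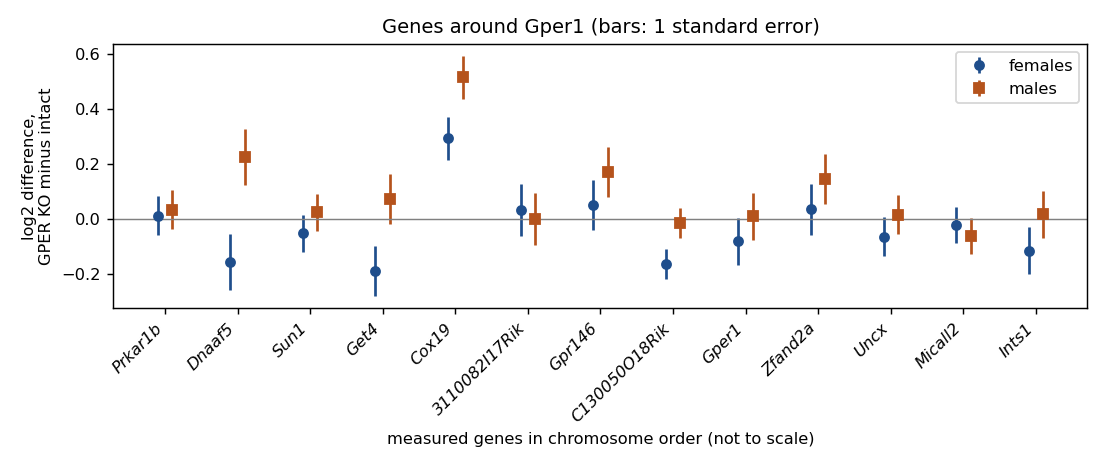
Log2 difference of GPER KO minus intact (y axis) for the measured genes around Gper1 in chromosome order (x axis, not to scale), with circles for females, squares for males and bars of 1 standard error. Cox19 is at 0.29 and 0.51 and the other genes lie between -0.19 and 0.23.

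The other assembly factors of complex IV did not pass the test. Cox17, the copper chaperone that feeds the enzyme, was at 0.02 in females and 0.18 ± 0.07 in males (adjusted p = 0.336). Cox10 and Cox15, which make heme a, had negative differences in both sexes. Over both sexes Cox10 was at -0.14 and Cox15 at -0.12, each at an unadjusted p under 0.05. Cox15 lay below the brightest nonspecific control. Of its other probe sets, the brighter was at -0.25 in males and the dimmer (mean 3.77) at 0.02. Cox11, needed for copper insertion, was too dim to read, with 2.42, 2.50, 2.64 and 2.57 in female GPER KO mice, 2.74, 2.63, 2.72 and 2.61 in intact females, 2.85, 2.71, 2.49 and 2.53 in male GPER KO mice and 2.39, 2.60, 2.71 and 2.57 in intact males. Of 14 assembly factors that the name rule does not take, none was called: in females 10 lay below 0 and in males 9 above. Among the 25 complex IV genes as a whole, 20 had lower means in females and 16 had higher means in males.

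Isoforms of complex IV subunits were set against each other only as shifts between groups. Cox7a1, the muscle form of subunit VIIa, was 11.75, 11.89, 11.87 and 11.80 in female GPER KO mice and 11.96, 12.04, 12.13 and 12.00 in intact females. It was 11.81, 11.78, 11.82 and 11.84 in male GPER KO mice and 11.85, 11.87, 11.97 and 12.05 in intact males. There was no overlap within either sex. The differences were -0.21 ± 0.06 in females (limma adjusted p = 0.169), -0.12 ± 0.06 in males (adjusted p = 0.490) and -0.16 ± 0.04 over both (adjusted p = 0.0559), so none passed. Cox7a2, the common form, was at -0.13 and -0.00, and the shift of Cox7a1 relative to Cox7a2 was -0.08 in females and -0.12 in males, where the arrays did not overlap in males.

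Cox6a2, the muscle form of subunit VIa, was 11.83, 11.83, 11.86 and 11.86 in female GPER KO mice and 11.91, 11.96, 12.07 and 11.88 in intact females, without overlap. In males it was 11.89, 11.97, 11.79 and 11.98 with GPER KO and 11.91, 11.95, 11.96 and 11.95 in intact mice, with overlap. The shift of Cox6a2 relative to the common Cox6a1 was -0.13 in females and -0.19 in males, and only the male arrays did not overlap. In males Cox6a1 was at 0.15 and Cox6a2 at -0.04. Cox8b, the muscle form of subunit VIII, was 11.86, 11.88, 11.88 and 11.90 in female GPER KO mice, 11.89, 11.96, 12.09 and 11.88 in intact females, 11.88, 11.81, 11.82 and 11.84 in male GPER KO mice and 11.82, 11.85, 11.90 and 11.90 in intact males. These groups overlapped, and its shift relative to Cox8a was -0.03 in females and -0.12 in males. The hypoxia-linked Cox4i2 and the common Cox4i1 shifted relative to each other by 0.06 and 0.01. Cox6b2, a testis form at control level here, was at -0.37 ± 0.13 in females (adjusted p = 0.241), and its mean level was 3.47. It was -0.238 without intact female 421 and -0.0898 without 421 and 422. The isoform shifts were given as descriptions and not tested.

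**Figure D4:**
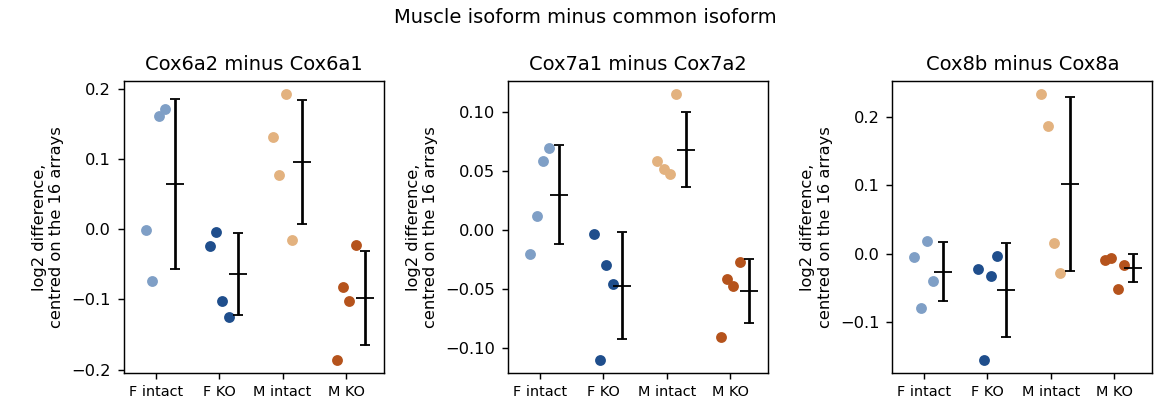
Log2 value of the muscle isoform minus that of the common isoform on each array, centred on the mean of the 16 arrays (y axis), by group, with points for mice and the bar for mean ± SD. For Cox6a2 and Cox7a1 the male GPER KO arrays lie below all intact male arrays, and for Cox8b the groups overlap.

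Cox7a2l, which takes part in joining complexes III and IV into supercomplexes, was 9.49, 9.52, 9.51 and 9.50 in female GPER KO mice and 9.59, 9.62, 9.60 and 9.57 in intact females, without overlap. In males it was 9.52, 9.49, 9.45 and 9.41 with GPER KO and 9.38, 9.50, 9.46 and 9.32 in intact mice, with overlap. The differences were -0.09 in females and 0.05 in males, neither called.

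In complex V, 16 of 18 genes had lower means with GPER KO in females and 15 of 18 in males, and none was called in either. Subunit c of the proton-carrying ring is encoded by Atp5g1, Atp5g2 and Atp5g3, which give the same mature protein. Atp5g2 was 10.11, 10.32, 10.12 and 10.08 in female GPER KO mice and 10.33, 10.50, 10.48 and 10.35 in intact females. In males it was 10.01, 9.90, 10.02 and 10.06 with GPER KO and 9.96, 10.13, 10.14 and 10.16 in intact mice. The female groups did not overlap, although GPER KO mouse 419 came close to the lowest intact mouse, and the male groups overlapped. The difference was -0.26 ± 0.07 in females (limma adjusted p = 0.156) and -0.10 ± 0.07 in males. Atp5g1 was at -0.14 and -0.02, and Atp5g3 at -0.05 and -0.04.

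Atpif1 encodes the inhibitor that stops the synthase from running backwards. It was 9.36, 9.31, 9.69 and 9.94 in male GPER KO mice and 9.08, 8.99, 9.29 and 9.23 in intact males, which did not overlap. In females it was 9.69, 9.89, 9.41 and 9.42 with GPER KO and 9.60, 9.41, 9.70 and 9.41 in intact mice, which overlapped. The male difference of 0.43 ± 0.14 did not pass (adjusted p = 0.220), and the female difference was 0.07. A second, dim probe set of Atpif1 (mean 3.77) was at -0.01 in males, and the mean of both probe sets gave 0.21. Atp5pb, subunit b of the peripheral stalk, was 11.30, 11.23, 11.33 and 11.42 in male GPER KO mice and 11.50, 11.45, 11.48 and 11.52 in intact males. These did not overlap, at -0.17 ± 0.06 (adjusted p = 0.240). In females it was 11.36, 11.41, 11.37 and 11.36 with GPER KO and 11.50, 11.45, 11.28 and 11.44 in intact mice, with overlap. Of 5 assembly factors of complex V, all had lower means in females and 2 in males, and none was called.

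**Figure D5:**
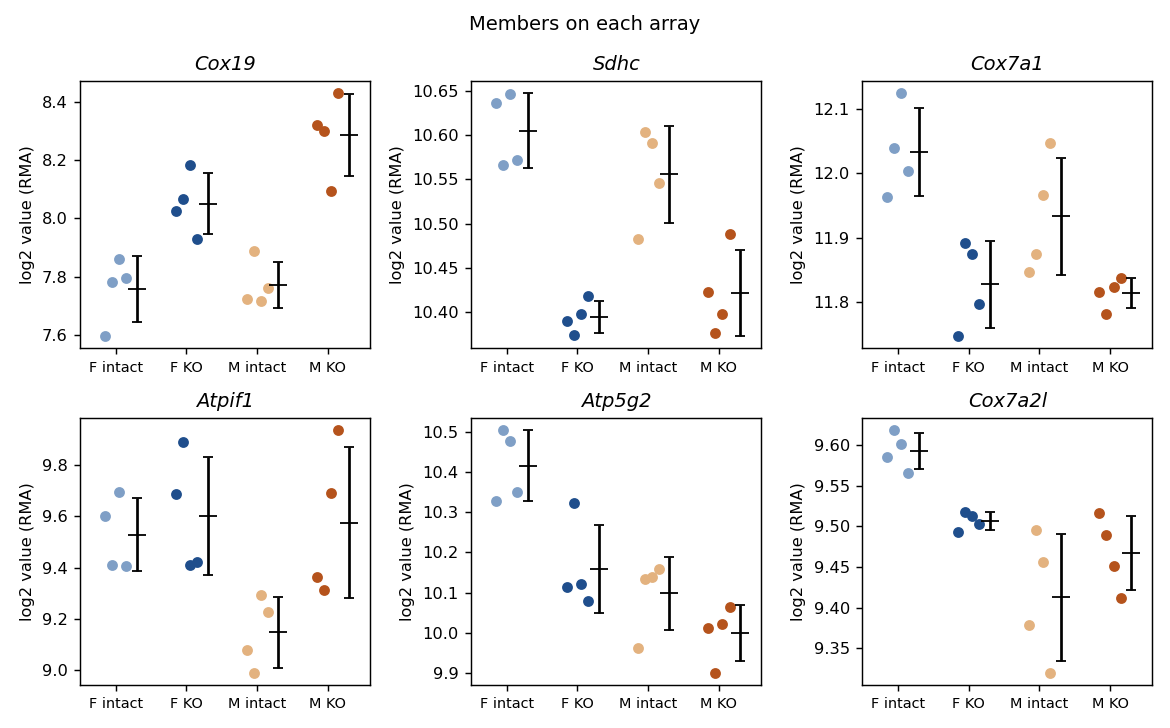
Log2 value (y axis) of 6 genes on each array, by group (F female, M male), with points for mice and the bar for mean ± SD. Cox19 is higher in every GPER KO mouse, and Sdhc and Cox7a1 are lower in every female GPER KO mouse than in any intact female.

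Intact mice of both sexes were compared last. Of the 58 genes, 45 had lower means in intact males than in intact females (77.6%, against 57.8% of all genes). The median was -0.06 (all genes -0.02). Atp5g2 was called, at -0.32 ± 0.07 (limma adjusted p = 0.048), while 0.579% of all genes were called. At an unadjusted p of 0.05, 13 were lower and none higher (22.4%), against 17.5% of all genes in either direction. Of the genes with a mean over 9, 30.1% of all 664 passed (141 lower and 59 higher). Among the 46 of these complexes 21.7% passed (10 lower and 0 higher). The call of Atp5g2 was lost when intact female 421 was left out (adjusted p = 0.134), and likewise for intact female 422 (adjusted p = 0.128) and for each intact male. Cox7a2l was at -0.18 without overlap (adjusted p = 0.0822), and Atpif1 at -0.38 without overlap (adjusted p = 0.167). Cox8a, the common form of subunit VIII, was at -0.22 (adjusted p = 0.152). It was 9.14, 9.30, 9.17 and 9.16 in female GPER KO mice, 9.15, 9.30, 9.33 and 9.18 in intact females, 9.15, 9.08, 9.13 and 9.11 in male GPER KO mice and 8.84, 8.92, 9.14 and 9.19 in intact males. Intact females enter this comparison and that of GPER KO in females, so the lower values of GPER KO females and of intact males share those 4 arrays.

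Neighbouring lists give the scale of these differences. The 41 complex I genes (symbols starting with Nduf, without Ndufa4) had 33 lower means in females (median -0.07) and 28 in males (median -0.03), none called. The 73 mitochondrial ribosomal protein genes had 64 lower means in females (median -0.13), but 57 higher means in males (median 0.05), none called. Of 9 markers of mitochondrial content in the outer membrane and matrix, 6 lay below 0 in females (median -0.03) and 4 in males (median 0.02). The carriers of adenine nucleotides and phosphate and the mitochondrial creatine kinases, 5 genes, had medians of -0.00 and 0.00. No call was made in either of the last lists in females or males.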

How the data were processed

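Total RNA of ventricular cardiomyocytes was labelled from the 3' end and hybridised to MG-430 PM array strips. The authors deposited a log2 value for each probe set, made with RMA and Partek according to the submitters' processing notes, which give no versions. No scanner signals were used here, so background correction and normalization could not be repeated, and slide or scan batches were not tested. The 4 arrays per group limit the precision.

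Gene names came from the platform annotation. Of 45141 probe sets, 28898 had 1 gene, 551 several and 15692 none. Symbols were updated through Entrez identifiers to RefSeq (GRCm38.p6), which matched 28689. Each of 17097 genes was represented by its probe set with the highest mean, and 26 of the 58 genes had several (96 probe sets in all). For 18 of these 26 in females, and 17 in males, all probe sets had differences of 1 sign.

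The 4 group means were fitted over 16 arrays in limma 3.58.1 (R 4.3.3) with lmFit, contrasts.fit and eBayes. Contrasts were GPER KO minus intact in females, in males and averaged over both, their difference, and intact males minus intact females. P-values were adjusted by Benjamini-Hochberg over all genes, with a threshold of 0.05 and no filter. The method was tested on simulated data. The mouse numbers are unique, so nothing paired the animals, and each array is 1 animal. Genes named were those called or, where fewer than 3 were called, the 3 with the smallest p in each contrast, the largest difference per complex and sex, and the isoform pairs, subunit c genes, Cyc1, Cycs and Atpif1. Others that are named were chosen after their values were seen. The genes and lists were chosen with earlier results of these data known. Alternatives covered the choice of probe set, a filter on dim genes, normalization, array weights, the variance prior, single-sex fits, structural subunits alone and leaving out arrays.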

Additional observations from a re-analysis of the deposited data

Results flagged for a closer look

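Among 108 groups of 4 arrays looked at for the 23 named genes and the means of the 4 complexes, 4 held an array that stood apart from the other 3 by Dixon's criterion at the 95% level, where chance gives about 5% of groups. Atp5g1 was 11.81 in intact male 453 and 11.70 in each of the other intact males. Atp5g2 was 9.96 in intact male 430 and 10.13 to 10.16 in the others of that group. Atp5pb was 11.41 in female GPER KO mouse 419 and 11.36 to 11.37 in the others. The complex V mean was 11.49 in the same mouse and 11.42 to 11.43 in the other female GPER KO mice.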

How the results depend on the processing

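Cox19 stayed called higher in males and over both sexes under every alternative that includes it (adjusted p 0.0013 to 0.0251 and 0.000423 to 0.00365), and Sdhc stayed called lower over both (0.00507 to 0.0408). In females the number of genes called was 0, and 1 with the mean of all probe sets of a gene (Sdhc, adjusted p = 0.0482). With structural subunits alone the counts were 0 in males and 1 over both, since Cox19 is an assembly factor. Array weights gave 4 over both. Cox7a1 over both was called under 4 alternatives (adjusted p 0.0236 to 0.0491). In intact mice the count was 0 under the mean of probe sets, the probe set with the largest variance, quantile normalization, median centring, array weights, and without intact females 421 and 422 together, and 0 to 1 when arrays were left out 1 at a time. The cause was not tested. Without 421 and 422 the median difference of the sexes' effects was 0.0385. Small uncalled values changed sign. In females Cox6a1 was -0.0094 with the mean of probe sets and -0.0343 with the most variable one, and Cox6b1 was -0.0239, -0.0508 and, with array weights, -5e-04. Without 421 and 422 Cox4i2 was -0.0447, Cox8a 0.0258 and Cycs -0.0143. In males Cox7a2 was 0.0083 after quantile normalization. Leaving out single arrays gave ranges in females of -0.0445 to 0.0639 for Cox6a1, -0.0155 to 0.0246 for Cox6b1, -0.0233 to 0.1373 for Atpif1 and -0.0444 to 0.0523 for Cox4i2. In males they were -0.0259 to 0.022 for Cox7a2, -0.0043 to 0.026 for Cox4i1, -0.0282 to 0.0731 for Cox4i2, -0.0451 to 0.0208 for Cyc1 and -0.0365 to 0.0099 for Atp5g1. No paired analysis was possible because the mouse numbers are unique. Of genes near the control level only large differences could be read.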
